A study of Saccharomyces cerevisiae with 40 samples.

Results

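The thioredoxin and peroxiredoxin system of *Saccharomyces cerevisiae* was followed here through 10 genes, taken from a list of known members. They are the thioredoxins TRX1, TRX2 and TRX3, the thioredoxin reductases TRR1 and TRR2, the peroxiredoxins TSA1, TSA2, AHP1 and PRX1, and the sulfiredoxin SRX1. All 10 were measured on both platforms of the study, among 5540 genes on an in-house cDNA chip and 5598 genes on an Agilent array of long oligonucleotides. Each had 1 probe on the cDNA chip. On the Agilent array TRX1, TRX2, TSA1 and SRX1 had 2 probes each, which were averaged and differed by at most 0.54 log2 units on any array. The study asked how yeast responds to arsenite (AsIII, given as NaAsO2). The parent was strain BY4741 (MATa, his3Δ, leu2Δ0, met15Δ0, uraΔ0), and the deletion strains yap1Δ, cad1Δ, rpn4Δ and arr1Δ shared that background, so every culture lacked MET15. On the cDNA chip, parent cultures were compared with their untreated control after 1 mM AsIII for 30 min (8 arrays from 2 culture pairs) or 100 µM AsIII for 30 min, 2 h or 4 h (4 arrays from 1 culture pair each). On the Agilent array, each strain after 100 µM AsIII for 2 h was compared with its own untreated RNA (4 arrays for the parent and 2 for each deletion), and each untreated deletion strain with the untreated parent (2 arrays each). Within every set, the dyes were swapped on a part of the arrays.

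Thioredoxins are small proteins that reduce disulfides in other proteins, and thioredoxin reductases restore them with electrons from NADPH. Peroxiredoxins use thioredoxin to reduce peroxides, and sulfiredoxin rescues peroxiredoxins whose active cysteine has been over-oxidized. Yeast keeps one set in the cytosol and another in mitochondria: 7 of the 10 genes (TRX1, TRX2, TRR1, TSA1, TSA2, AHP1 and SRX1) encode cytosolic proteins and 3 (TRX3, TRR2 and PRX1) mitochondrial ones. The transcription factor Yap1 is a classical activator of several cytosolic members during oxidative stress, and Cad1 and Arr1 belong to the same bZIP family. Rpn4 is the activator of proteasome genes. Trivalent arsenic binds neighbouring thiols of the kind that thioredoxin carries.

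Values are given as log2 ratios, with the treated or the deletion RNA as the numerator, so 1 unit is a 2-fold difference. For the AsIII arrays this direction is likely rather than stated, since the labels name the dyes and not the numerator. Each test was limma's moderated test on the mean of each culture pair or dye-swapped pair of arrays, with Benjamini-Hochberg adjustment over all genes of the platform, and a gene was called at an adjusted p under 0.05. SE is the standard error of that fit. Arrays of a pair share their RNA, so the number of arrays does not measure biological spread. Where the array number is named as a block, that fit counted each array as a replicate. It therefore measured technical spread. The 2 culture pairs at 1 mM gave the spread on the cDNA chip. On the Agilent array it came from the 2 array pairs of the parent, for which the labels do not say whether they came from separate cultures. The labels do not say either which parent arrays form a pair, and arrays 1 with 2 and 3 with 4 were taken by choice. Both arrays of each untreated deletion strain put the deleted gene below the parent: YAP1 at -4.05 and -4.66, CAD1 at -3.94 and -5.57, RPN4 at -3.62 and -4.46, and ARR1 at -0.95 and -3.60. In the untreated comparisons the arrays differed by dye orientation. Over all genes, the 2 arrays of opposite orientation correlated at -0.48 for yap1Δ, -0.14 for cad1Δ, 0.57 for rpn4Δ and 0.40 for arr1Δ, against 0.82 to 0.93 in the AsIII comparisons of the Agilent array. TRX1 and TRX2, and likewise TSA1 and TSA2, are close paralogs, and shared hybridization between them was not measured.

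At 1 mM AsIII for 30 min, 8 of the 10 genes rose and none fell, while 9.69% of all genes on the chip rose. TRX2, the inducible cytosolic thioredoxin, ran from 2.07 to 3.31 with a median of 3.13 over the 8 arrays. Its mean was 2.91 (SE 0.22), a 7.50-fold increase, with an adjusted p of 0.00501 in limma. TRX1, the other cytosolic thioredoxin, ran from -0.37 to 1.28 around a median of 0.50 and did not pass the test (mean 0.44, SE 0.20, adjusted p = 0.174 in limma). All 8 TRX2 arrays therefore lay above the highest TRX1 array. The mitochondrial thioredoxin TRX3 was above 0 on 8 of 8 arrays, from 0.44 to 1.08, with a mean of 0.85 (SE 0.21) that passed narrowly (adjusted p = 0.0497 in limma).

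Both reductases rose. Cytosolic TRR1 ran from 0.91 to 1.75 (mean 1.37, SE 0.22, 2.58-fold). Mitochondrial TRR2 ran from 0.48 to 1.68 (mean 1.11, SE 0.20, 2.17-fold). The 2 ranges overlapped over most of their length. Among the peroxiredoxins, AHP1, which prefers alkyl hydroperoxides, ran from 1.76 to 3.22 and averaged 2.47 (SE 0.20, 5.53-fold). TSA1, the most abundant cytosolic peroxiredoxin, ran from 1.27 to 2.94 and averaged 2.00 (SE 0.21, 4.00-fold), and mitochondrial PRX1 ran from 0.95 to 2.56 and averaged 1.79 (SE 0.27, 3.46-fold). SRX1, which repairs the TSA peroxiredoxins, ran from 1.51 to 2.87 and averaged 2.34 (SE 0.21, 5.06-fold). The adjusted p-values of TRR1, TRR2, AHP1, TSA1, PRX1 and SRX1 lay between 0.00554 and 0.0245 in limma.

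TSA2, the second cytosolic Tsa peroxiredoxin, split between the culture pairs. The 4 arrays of the first pair read -0.78, -0.92, -0.54 and -0.26, and the 4 of the second read 1.02, 0.85, 1.38 and 1.31. The pairs did not overlap, and the mean of 0.26 (SE 0.43) had an adjusted p of 0.703 in limma. No other member changed sign between the pairs. PRX1 had the next widest gap, at 1.39 and 2.20.

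**Figure D1:**
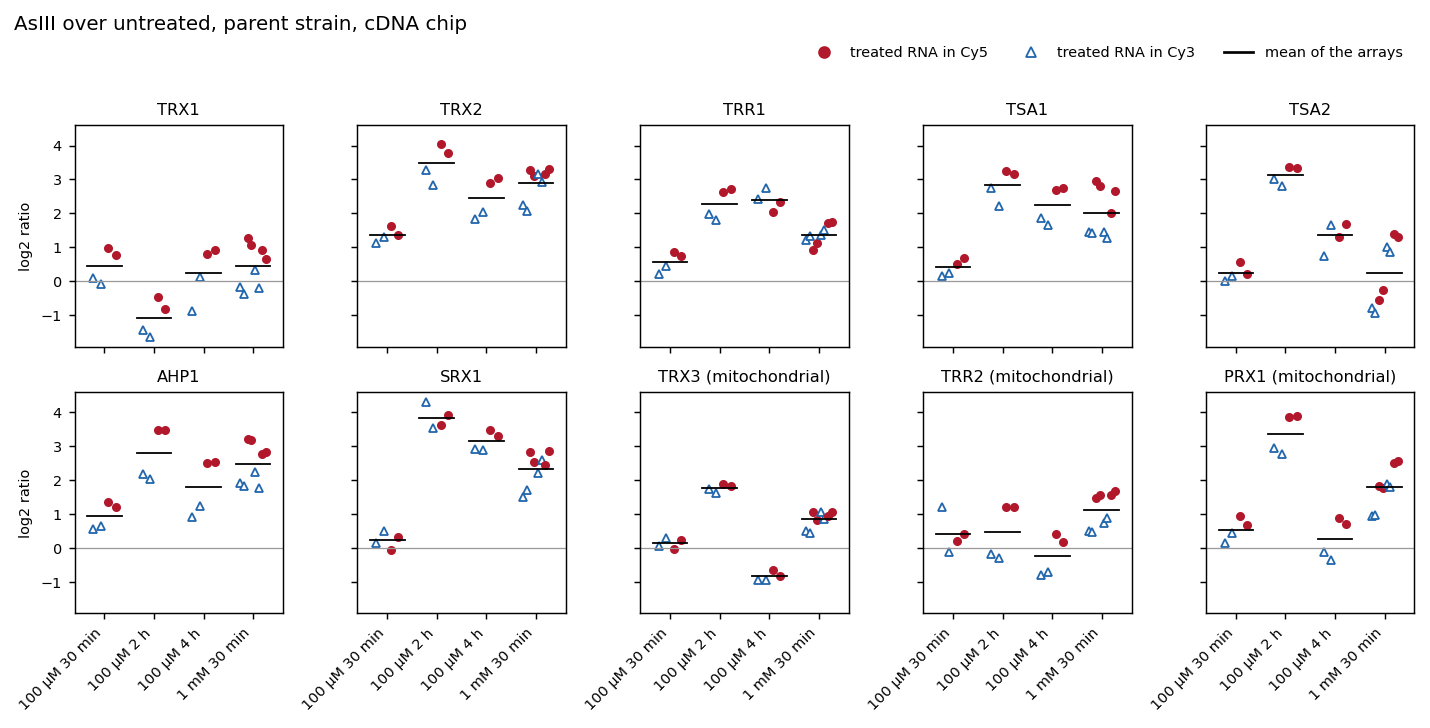
Log2 ratio of AsIII-treated over untreated RNA of the parent strain on each cDNA array (points; circles have the treated RNA in Cy5, triangles in Cy3) with the mean of the arrays (bars), for the 10 genes in 4 conditions. SRX1, TRX2 and PRX1 have the highest means after 100 µM for 2 h. After 4 h TRX3 lies below 0 and PRX1 on both sides of 0 by dye. TSA2 at 1 mM separates into the 2 culture pairs.

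At 100 µM the responses differed by time. After 30 min none of the 10 genes was called and 0% of all genes was. TRX2 was nevertheless above 0 on all 4 arrays (1.12, 1.32, 1.64 and 1.36), as was AHP1 (0.56, 0.64, 1.36 and 1.22). Both had an adjusted p of 0.999 in limma, with unadjusted values of 0.00663 and 0.0189. The other 8 members averaged between 0.14 and 0.57, and SRX1 read 0.16, 0.52, -0.06 and 0.34.

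After 2 h, 7 of the 10 genes rose, against 3.75% of all genes. SRX1 had the highest mean of the 10, at 4.30, 3.53, 3.63 and 3.91 on its arrays (mean 3.84, SE 0.30, 14.3-fold, adjusted p = 0.0154 in limma). TRX2 read 3.27, 2.83, 4.06 and 3.79 (mean 3.49, SE 0.31, 11.2-fold), and mitochondrial PRX1 read 2.95, 2.77, 3.87 and 3.91 (mean 3.37, SE 0.37, 10.4-fold). TSA1 (2.84, SE 0.30), AHP1 (2.79, SE 0.28), TRR1 (2.28, SE 0.31) and TRX3 (1.78, SE 0.29) also rose, each above 1.6 on all 4 arrays. TSA2 read 3.01, 2.81, 3.36 and 3.34, yet its mean of 3.13 (SE 0.61) just missed the threshold (adjusted p = 0.0513 in limma), since its error was set by the split at 1 mM. TRX1 was below 0 on all 4 arrays (-1.42, -1.63, -0.46 and -0.81; mean -1.08, SE 0.28, adjusted p = 0.0832 in limma). TRR2 was below 0 on both arrays of one dye orientation (-0.17 and -0.30) and at 1.21 on both of the other, so its mean of 0.49 described neither.

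After 4 h none of the 10 genes was called, and 0.0542% of all genes was. The means nevertheless ran from 3.16 for SRX1 to -0.83 for TRX3. SRX1 read 2.93, 2.90, 3.50 and 3.31 (mean 3.16, SE 0.30, adjusted p = 0.0951 in limma). TRX2 (2.45), TRR1 (2.40), TSA1 (2.24), AHP1 (1.81) and TSA2 (1.35) stayed above 0 on every array. Mitochondrial PRX1 read -0.11 and -0.34 with the treated RNA in Cy3 and 0.88 and 0.70 with it in Cy5. Mitochondrial TRX3 was below 0 on all 4 arrays (-0.94, -0.94, -0.63 and -0.82). Neither overlapped its own 2 h arrays. The same held for cytosolic TSA2 (highest 1.69 at 4 h, lowest 2.81 at 2 h) and, narrowly, SRX1 (3.50 and 3.53), but not for mitochondrial TRR2. The share of all genes without such overlap was not counted. From 2 h to 4 h, PRX1 differed by -3.09 (SE 0.53, adjusted p = 0.0763 in limma) and TRX3 by -2.61 (SE 0.41, adjusted p = 0.067 in limma), while the third mitochondrial member, TRR2, differed by -0.71 (SE 0.41). The cytosolic members SRX1, TSA1, AHP1, TRX2 and TSA2 differed by -0.68, -0.60, -0.99, -1.03 and -1.78, TRR1 by 0.12 (SE 0.44) and TRX1 by 1.33 (SE 0.40, adjusted p = 0.147 in limma). No gene on the chip passed the test of a difference between 2 h and 4 h (0%), between 30 min and 2 h (0%), between 1 mM and 100 µM at 30 min (0%), or between 1 mM for 30 min and 100 µM for 2 h (0%). At an unadjusted p under 0.05, these 4 comparisons gave 1221, 860, 791 and 817 of all 5540 genes, in the same order. These differences have 1 culture pair at 100 µM per time, whose spread was assumed equal to that of the 1 mM pairs. With each array counted as a replicate instead, which measures technical spread, 9 of the 10 genes passed for 2 h minus 30 min (26.7% of all genes), 5 for 4 h minus 2 h (37.3%), 7 for 1 mM minus 100 µM at 30 min (27.7%) and 6 for 1 mM at 30 min minus 100 µM at 2 h (27.4%).

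Over the 3 culture pairs of 1 mM for 30 min and 100 µM for 2 h together, 7 of the 10 genes rose, against 9.35% of all genes. TRX2 averaged 3.10 (SE 0.23), SRX1 2.84 (SE 0.35), AHP1 2.58 (SE 0.19), PRX1 2.32 (SE 0.39), TSA1 2.28 (SE 0.25), TRR1 1.67 (SE 0.26) and TRX3 1.16 (SE 0.26), each above 0 on 12 of 12 arrays. TRX3 lost its call without either 1 mM culture pair (adjusted p = 0.0653 and 0.0772 in limma). TRR2 was above 0 on 10 of 12 arrays (0.91, SE 0.22, adjusted p = 0.0501 in limma). TSA2 averaged 1.22 (SE 0.67) and TRX1 -0.07 (SE 0.35). The median over the 10 genes was 1.98, and over all genes -0.04.

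On the Agilent array, the parent after 100 µM AsIII for 2 h had all 10 genes called higher. On this array 34.7% of all genes were called higher too, and one spread of 0.17 log2 units was fitted to every gene. With the further condition of at least 2-fold, 5 of the 10 genes rose, against 11.5% of all genes. SRX1 read 3.75, 4.64, 3.82 and 4.59 on its 4 arrays (mean 4.20, SE 0.12, 18.4-fold). TRR1 read 2.51, 2.85, 2.63 and 2.91 (mean 2.72, 6.60-fold), and TRX2 read 2.75, 2.68, 2.85 and 2.38 (mean 2.66, 6.34-fold). TSA1 (1.66, 2.05, 1.68 and 2.14; 3.69-fold) and TSA2 (1.17, 0.89, 1.40 and 0.98; 2.16-fold) made up the 5. Below 2-fold stood AHP1 (0.98), PRX1 (0.91), TRX3 (0.73), TRR2 (0.54) and TRX1 (0.26), whose adjusted p in limma was 0.0446. The SE was 0.12 for each of the 10.

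The same dose and time had been measured in the parent on the cDNA chip, from poly(A) RNA in place of total RNA and with other cultures, so the values stand side by side with no test. For TRX2, TRR1, TRR2 and SRX1 the 4 arrays of each platform overlapped. For the other 6 they did not: TSA2 averaged 3.13 on the cDNA chip and 1.11 on the Agilent array, PRX1 3.37 and 0.91, AHP1 2.79 and 0.98, TRX3 1.78 and 0.73, TSA1 2.84 and 1.88, and TRX1 -1.08 and 0.26. TRX1 was the only member whose sign differed. How many of all genes had no overlap between the platforms was not counted. PRX1 held place 3 of the 10 by mean on the cDNA chip and place 7 on the Agilent array.

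In yap1Δ the members divided into those with no response past the test, those that fell and those that still rose. With AsIII, TRX2 read 0.36 and -0.17 (mean 0.10, SE 0.17) and TRR1 -0.11 and 0.18 (mean 0.03, SE 0.17), where no array of the parent was below 2.3. TSA2, which rose in the parent, fell in yap1Δ to -2.36 and -3.05 (mean -2.71, 6.54-fold lower). PRX1 (-0.77 and -0.23) and TSA1 (-0.62 and -0.16) were also below 0, called at adjusted p-values of 0.00699 and 0.0372 in limma. The TSA1 call was lost with the array number as a block (adjusted p = 0.256 in limma). SRX1 still rose, to 0.63 and 1.98 (mean 1.30, 2.47-fold). TRX1 (0.66), TRX3 (0.95) and TRR2 (0.97) rose as well, each above 0 on both arrays. AHP1 read 0.85 and -0.43. In all, 4 of the 10 genes rose in yap1Δ and 3 fell, against 30.5% and 36% of all genes, and 1 of the 10 rose at least 2-fold, against 11.6% of all genes. Each of these counts is near the share of all genes, so the counts alone do not set the members apart.

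**Figure D2:**
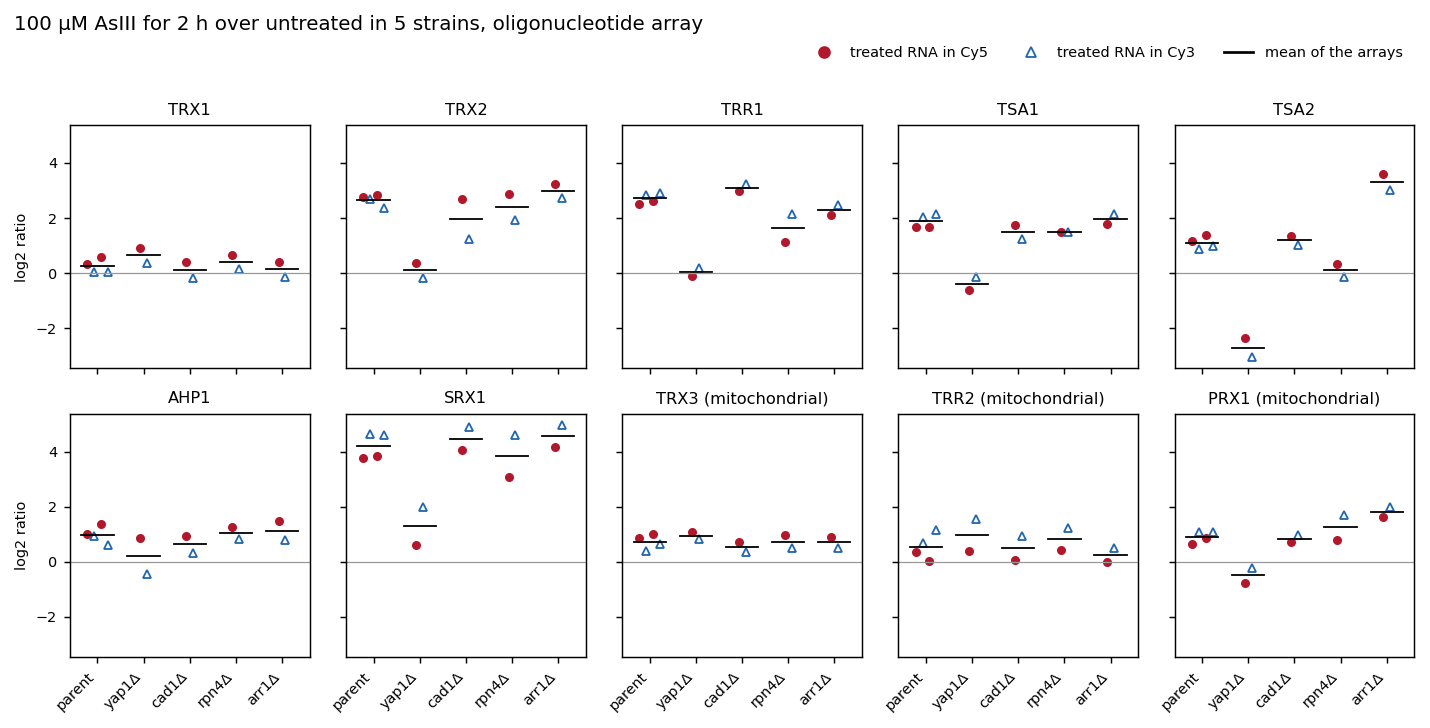
Log2 ratio of RNA after 100 µM AsIII for 2 h over untreated RNA of the same strain on each Agilent array (points; circles have the treated RNA in Cy5, triangles in Cy3) with the mean of the arrays (bars), for the 10 genes in the parent and 4 deletion strains. In yap1Δ, TRX2 and TRR1 average 0.10 and 0.03 and TSA2 falls to a mean of -2.71, while both arrays of TRX1, TRX3 and TRR2 lie above 0.

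As a difference of responses, yap1Δ minus parent, 7 of the 10 genes were lower, against 7.36% of all genes. TSA2 was lower by the widest margin, -3.82 (SE 0.21), with -3.65 from the arrays with treated RNA in Cy5 and -3.99 from those in Cy3. SRX1 followed at -2.90 (-3.16 and -2.63 by dye), then TRR1 at -2.69 (-2.68 and -2.70), TRX2 at -2.57 (-2.44 and -2.69) and TSA1 at -2.27 (-2.29 and -2.25). Mitochondrial PRX1 was lower by a smaller margin, -1.41 (-1.51 and -1.31). For these 6 genes the parent and yap1Δ arrays did not overlap. The share of all genes without such overlap was not counted. AHP1 was at -0.77 (adjusted p = 0.00405 in limma), but -0.34 and -1.19 by dye, and its call was lost with the array number as a block (adjusted p = 0.054 in limma). TRX1 at 0.40 (95% interval -0.01 to 0.81), TRX3 at 0.21 (-0.20 to 0.63) and TRR2 at 0.43 (0.01 to 0.84) were not called. With that block, which counts each array as a replicate, TRX1 was called higher (adjusted p = 0.0278 in limma). The median over the 10 genes was -1.84, and over all genes 0.07. The same 4 parent arrays entered the comparison with every deletion strain, so those comparisons are not independent.

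In cad1Δ 9 of the 10 genes rose with AsIII, against 31.9% of all genes, and 5 rose at least 2-fold, against 13.1%. The response of TRX2 alone was called lower than in the parent (-0.70, SE 0.21, adjusted p = 0.0274 in limma), where 2.48% of all genes were lower. Its arrays read 2.69 and 1.24, so the difference was -0.11 in one dye orientation and -1.29 in the other. That call was lost with the array number as a block (adjusted p = 0.178 in limma). The intervals of the other 9 differences all included 0 and lay between -0.81 and 0.79.

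In rpn4Δ 9 of the 10 genes rose with AsIII, against 24.4% of all genes, and 6 rose at least 2-fold, against 7.81%. Both members whose response was lower than in the parent were cytosolic. TRR1 read 1.15 and 2.15 (difference -1.07, SE 0.21, adjusted p = 4.77e-06 in limma), and TSA2 read 0.33 and -0.12 (difference -1.0, SE 0.21, adjusted p = 1.99e-05 in limma). Both stayed below every parent array. With 2 of 10 genes lower, against 17.7% of all genes, the share among the members was near that of the array. With the parent arrays paired the other way (1 with 4 and 3 with 2), TSA1 and SRX1 were called lower as well, 4 of 10 genes against 23.7% of all genes. YAP1 itself rose less in rpn4Δ (1.55 and 1.38) than in the parent (2.09 to 2.30). It rose less in arr1Δ as well (1.68 and 1.59), where TSA2 responded more than in the parent and TRR1 was not called. The part of YAP1 in the values of TRR1 and TSA2 was not tested in either strain.

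In arr1Δ 8 of the 10 genes rose with AsIII, against 23.2% of all genes, and 7 rose at least 2-fold, against 5.57%. TSA2 read 3.60 and 3.01 where the parent read 0.89 to 1.40, a response higher by 2.19 (SE 0.21, 4.58-fold). PRX1 read 1.61 and 1.97 where the parent read 0.64 to 1.08, higher by 0.88 (SE 0.21, adjusted p = 0.000113 in limma). These 2 of 10 genes with a higher response compare with 28.6% of all genes. With the other pairing of the parent arrays SRX1 was called higher as well, 3 of 10 genes against 34.7% of all genes, and TRR1 lower, 1 of 10 against 30.2%. TRR1 was at -0.43 (adjusted p = 0.0736 in limma), and the other 7 differences lay between -0.28 and 0.36.

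**Figure D3:**
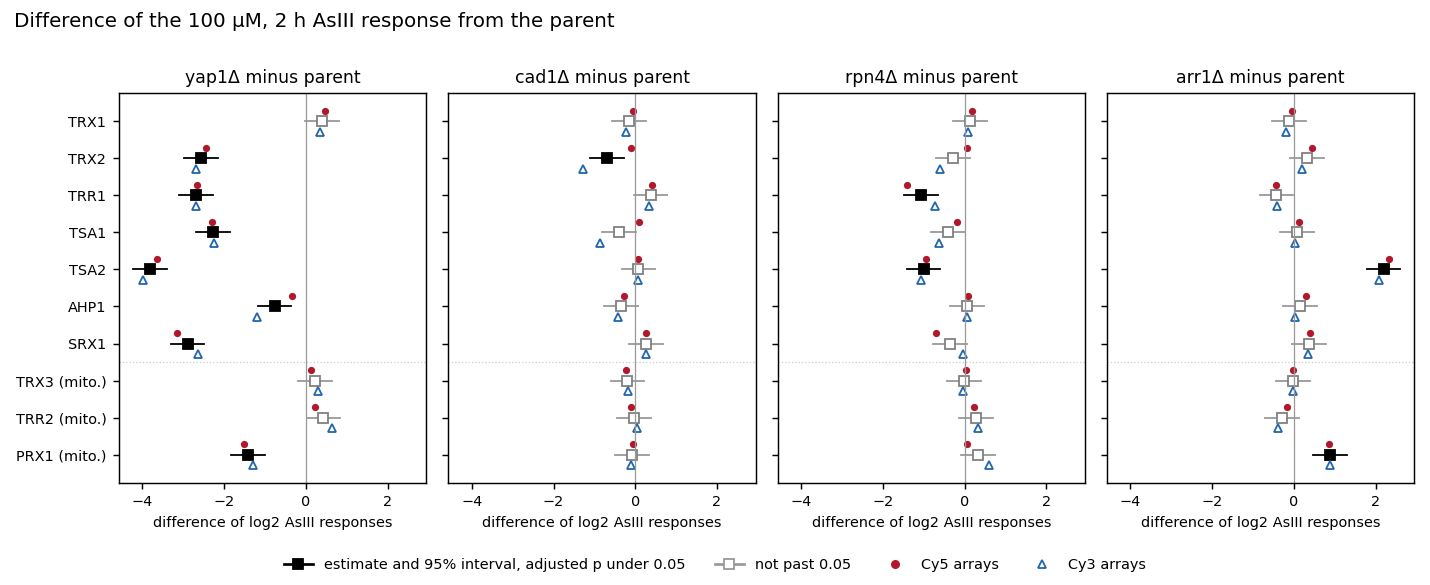
Difference of the log2 AsIII response of each deletion strain from that of the parent on the Agilent array (squares, with 95% intervals from limma; filled where the adjusted p was under 0.05), with the same difference from the Cy5 arrays (circles) and the Cy3 arrays (triangles). In yap1Δ 7 genes lie to the left, from AHP1 at -0.77 to TSA2 at -3.82, and in arr1Δ TSA2 lies to the right at 2.19.

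Before treatment, between 0 and 4 of the 10 genes were called in each deletion strain. In untreated yap1Δ only TSA1 was called lower, among 1.29% of all genes, with -1.24 on one array and 0.01 on the other (mean -0.62, SE 0.17, adjusted p = 0.0145 in limma), and the call was lost with the array number as a block (adjusted p = 0.282 in limma). SRX1 read -1.59 and 1.20 there, opposite in sign by dye. TRX2 (-0.50 and -0.26) and TSA2 (-0.12 and -0.61) were below 0 on both arrays without passing the test. In cad1Δ none of the 10 genes was called, and 2.68% of all genes was. In rpn4Δ TSA2 (0.89 and 0.21, adjusted p = 0.00875 in limma) and TRX2 (0.37 and 0.59, adjusted p = 0.0276 in limma) were higher, 2 of 10 genes against 10.9% of all genes. With the block, TRX2 in rpn4Δ was no longer called (adjusted p = 0.289 in limma) and TRX1 was (adjusted p = 0.0317 in limma).

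The untreated arr1Δ strain had 4 of the 10 genes lower, against 11.5% of all genes. TSA2 read -0.96 and -1.12 (mean -1.04, SE 0.17, 2.06-fold lower). PRX1 read -1.08 and -0.31 (mean -0.70), and TRX3 read -0.35 and -0.79 (mean -0.57). SRX1 read -1.18 and 0.09, and its call (adjusted p = 0.0104 in limma) was lost with the block (adjusted p = 0.208 in limma).

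**Figure D4:**
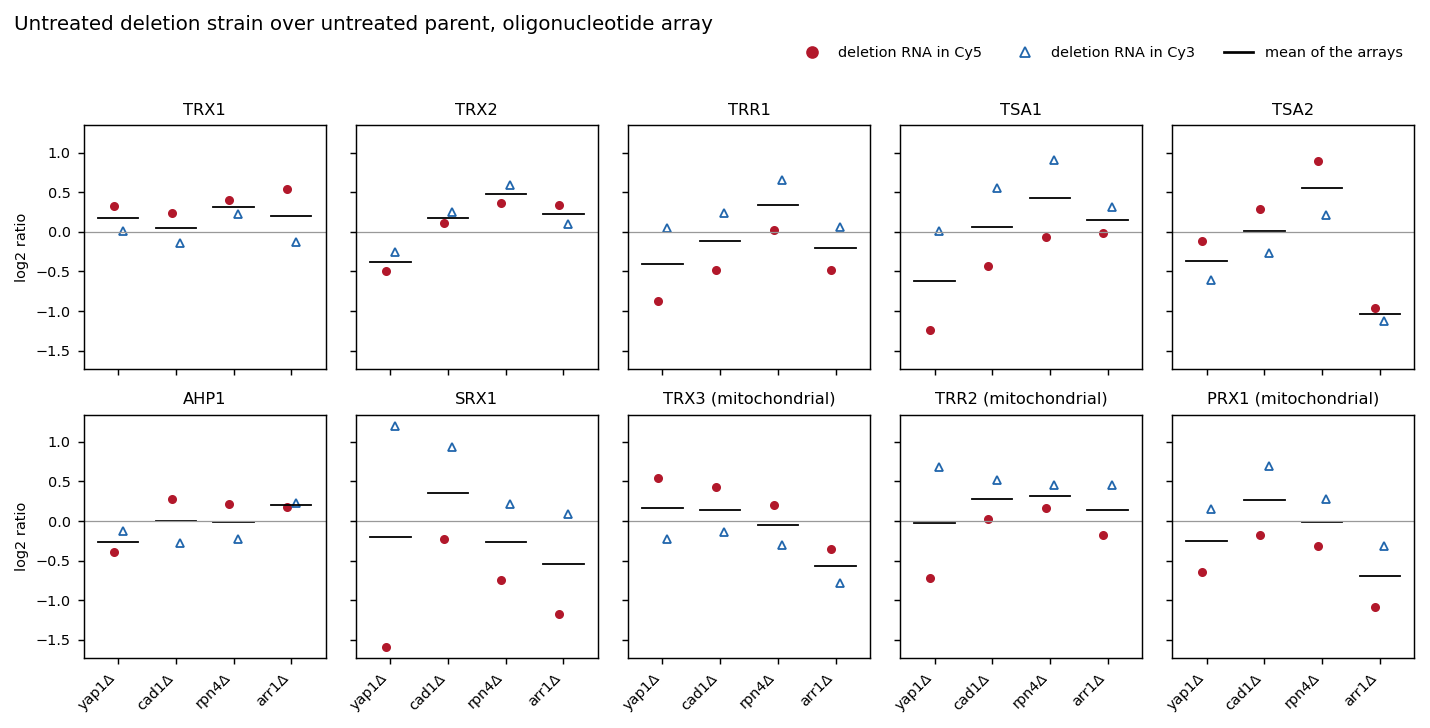
Log2 ratio of untreated deletion strain over untreated parent on each of the 2 Agilent arrays per strain (circles with the deletion strain's RNA in Cy5, triangles in Cy3), with their mean (bars). The 2 arrays of SRX1 in yap1Δ lie at -1.59 and 1.20, whereas those of TSA2 in arr1Δ lie together at -0.96 and -1.12.

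Adding the untreated ratio to the difference of responses gave the level in the treated deletion strain over the treated parent, a derived value that no array measured directly. In yap1Δ 7 of the 10 genes were lower by this sum, against 4.77% of all genes: TSA2 by -4.18 (SE 0.27), TRR1 by -3.10, SRX1 by -3.09, TRX2 by -2.94, TSA1 by -2.89, PRX1 by -1.65 and AHP1 by -1.03. The SRX1 value was -4.75 from the Cy5 arrays and -1.43 from the Cy3 arrays. The AHP1 call was lost with the array number as a block (adjusted p = 0.128 in limma). In cad1Δ none was called, where 0.947% of all genes was. In rpn4Δ TRR1 alone was lower, at -0.73 (adjusted p = 0.0341 in limma), against 11.1% of all genes, and not with the block (adjusted p = 0.101 in limma). In arr1Δ TSA2 alone was higher, at 1.15 (SE 0.27, adjusted p = 0.000195 in limma), against 18.5% of all genes. TSA2 in arr1Δ was thus below the parent before AsIII and above it after. PRX1, whose response was higher in arr1Δ, was not called by this sum. It stood at 0.12 and 0.23 without one or the other array pair of the parent.

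Cytosolic and mitochondrial isoforms were then compared within each of the 11 AsIII pairs, 5 on the cDNA chip and 6 on the Agilent array. The test was a two-sided exact sign-flip permutation test, over 8 differences, with Benjamini-Hochberg adjustment. It treats the 11 pairs as independent, although they mix platforms, doses, times and strains. Its p-values therefore do not measure spread over replicate cultures of one condition. TRX2 responded more than mitochondrial TRX3 in 10 of 11 pairs, by 1.70 on average (SD 1.00, range -0.85 to 3.29, adjusted p = 0.00781, exact permutation). TRR1 responded more than mitochondrial TRR2 in 10 of 11 pairs, by 1.27 (SD 1.21, range -0.94 to 2.62, adjusted p = 0.026, exact permutation). In each case the pair on the other side of 0 was yap1Δ. The reductase difference was small at 30 min, at 0.14 in the first 1 mM pair, 0.37 in the second and 0.14 at 100 µM, and reached 2.62 at 100 µM for 4 h. TRX1 did not stand above TRX3: the mean difference was -0.44 (SD 0.94, adjusted p = 0.168, exact permutation).

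Among the peroxiredoxins, no difference from mitochondrial PRX1 passed the test over the 11 pairs. TSA1 minus PRX1 was 0.44 (SD 0.72, above 0 in 8 of 11 pairs, adjusted p = 0.105, exact permutation), AHP1 minus PRX1 was 0.22 (SD 0.68, adjusted p = 0.357, exact permutation), and TSA2 minus PRX1 was -0.33 (SD 1.18, adjusted p = 0.373, exact permutation). Within the cytosol, TRX2 responded more than TRX1 in 10 of 11 pairs, by 2.14 (SD 1.26, adjusted p = 0.00781, exact permutation). TSA2 minus TSA1 was -0.77 (SD 1.14, below 0 in 9 of 11 pairs, adjusted p = 0.0977, exact permutation). Within a platform nothing passed: the 5 cDNA pairs allow no exact p below 0.0625 and the 6 Agilent pairs none below 0.0312. On the cDNA chip TRX2 exceeded TRX3 and TRX1, and TRR1 exceeded TRR2, in 5 of 5 pairs, and on the Agilent array in 5 of 6. The Agilent pairs lay on one side in 6 of 6 for TSA1 minus PRX1 (0.11 to 0.99) and TRX1 minus TRX3 (-0.57 to -0.29), each at the smallest p that 6 pairs allow and at an adjusted p of 0.125 (exact permutation). On the cDNA chip TSA1 exceeded PRX1 in 2 of 5 pairs, and TRX1 exceeded TRX3 in 2 of 5. The pairs share a strain or a control in part, so they are not fully independent.

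**Figure D5:**
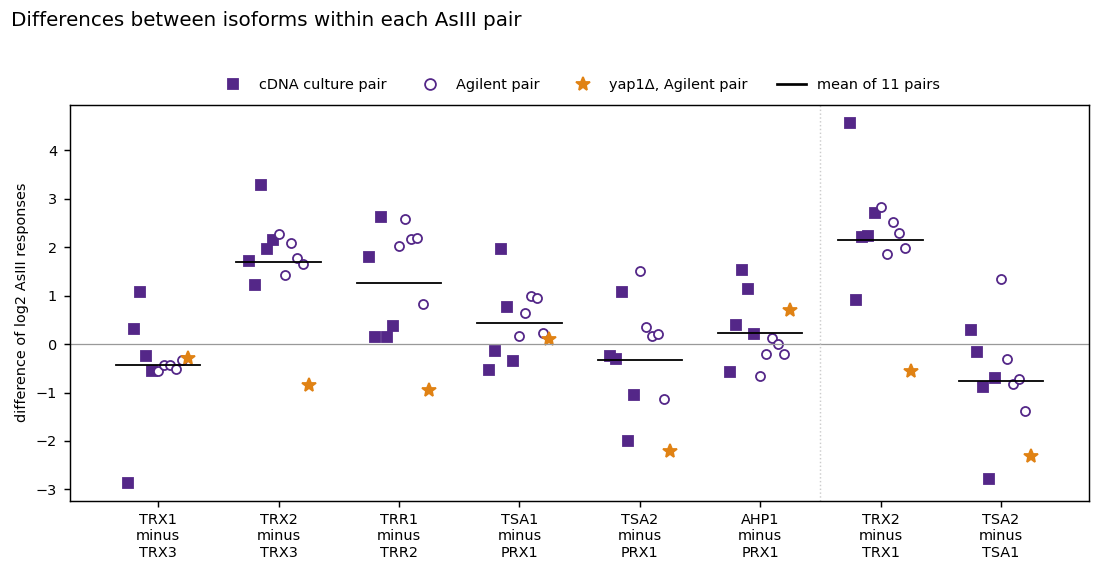
Difference of the log2 AsIII responses of 2 isoforms within each of 11 pairs (filled squares, cDNA culture pairs; open circles, Agilent pairs; star, yap1Δ), with the mean of the 11 pairs (bars). TRX2 exceeds TRX3 and TRX1, and TRR1 exceeds TRR2, in every pair but yap1Δ, whereas the peroxiredoxin differences lie on both sides of 0.

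The members followed several patterns over the 13 condition means of both platforms (4 on the cDNA chip and 9 on the Agilent array), given here as a description. TRX2 and TSA1 were the most alike of the 45 member pairs (Pearson r = 0.97 over 13 conditions), followed by TRR1 and SRX1 (0.94). TRX1 correlated below 0 with 8 of the other 9 members, at -0.67 with PRX1 and -0.64 with TSA2, and at 0.22 with TRR2. Its mean was -1.08 at 100 µM for 2 h on the cDNA chip and between 0.05 and 0.66 in every other condition. At that dose and time the Agilent parent averaged 0.26. The correlations were not recomputed without the cDNA value. Among the other 5503 genes on both platforms, GPX2, a glutathione peroxidase homolog that takes electrons from thioredoxin, was nearest to TRR1 (r = 0.97). GRE2, a stress-induced reductase, was nearest to AHP1 (0.94) and second to TRX2 (0.95, after SDL1 at 0.95). CCP1, the mitochondrial cytochrome c peroxidase, was nearest to TSA1 (0.95), ECM38, a glutathione-degrading enzyme, to PRX1 (0.98), IBA57 to SRX1 (0.95) and UBI4, a polyubiquitin gene, to TRX3 (0.95). TRX1 (MSB1, 0.90), TRR2 (YGL081W, 0.91) and TSA2 (MME1, 0.91) had less close neighbours. Platform and shared parent RNA enter these values.

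Around the system, 36 other genes in 4 groups were read. Of 7 other thiol peroxidases and thioredoxin substrates, 3 rose and none fell at 1 mM, where 9.69% of all genes rose and 7.09% fell: GPX2 by 2.83, MXR1, a methionine sulfoxide reductase, by 2.24, and MET16, the thioredoxin-dependent sulfate reduction enzyme, by 3.73. The median of the 7 was 0.15, and of all genes 0.02. In the parent on the Agilent array the same 3 rose (GPX2 by 3.88, MXR1 by 1.30 and MET16 by 1.27) and MXR2, GPX1 and HYR1 fell, MXR2, the mitochondrial methionine sulfoxide reductase, by 1.76. Over all genes of that comparison 34.7% rose and 42.7% fell, so 3 of 7 in each direction is near the background. GPX2 was the only one of the 7 with a lower response in yap1Δ than in the parent, at -4.19 (SE 0.21), from 3.81 to 4.04 on the parent arrays to -0.36 and -0.25 in yap1Δ. Of all genes, 7.36% were lower in that comparison.

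Of 9 glutaredoxins and glutathione reductase, the parallel route for reducing thiols, GRX8 (3.39), GLR1 (2.23) and GRX3 (1.04) rose at 1 mM and none fell. At that dose 9.69% of all genes rose and 7.09% fell. The median of the 9 was 0.67. In the parent on the Agilent array 5 rose, led by GLR1, the glutathione reductase, at 1.85, and 2 fell, against 34.7% and 42.7% of all genes. The 2 that fell were GRX1 and GRX3, so GRX3 went the other way from its rise at 1 mM. In yap1Δ minus parent, GLR1 (-1.79), GRX2 (-1.79) and GRX5 (-0.97) were lower and GRX4 (0.65) was higher. Of all 5598 genes, 412 were lower and 302 higher in that comparison. Of 12 genes that supply NADPH, only ZWF1, the first enzyme of the pentose phosphate pathway, rose at 1 mM (1.12) and at 100 µM for 2 h (1.99). Only ALD6 fell at 1 mM (-1.05). At 1 mM, 1 of 12 in each direction is near the 9.69% and 7.09% of all genes. At 100 µM for 2 h, 3.75% of all genes rose. In the parent on the Agilent array 7 of the 12 fell and 2 rose, against 42.7% and 34.7% of all genes, with TAL1 at -1.51 and SOL4 at -1.42, and the median of the 12 was -0.74, against -0.10 for all genes. ZWF1 was not called there, and ALD6 was among the 7 that fell.

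Of 8 regulators, RPN4 (3.11), YAP1 (1.64) and MSN2 (0.89) rose at 1 mM and none fell, where 9.69% of all genes rose and 7.09% fell. In the parent on the Agilent array YAP1 (2.21), RPN4 (1.99) and MSN2 (1.58) rose, while MSN4 (-1.84), YBP1 (-1.12), CAD1 (-0.89) and ARR1 (-0.53) fell. Over all genes 34.7% rose and 42.7% fell, so 3 of 8 higher and 4 of 8 lower are near the background. The YAP1 probe in yap1Δ read 0.03 and 0.14 with AsIII. RPN4 rose in yap1Δ as well (2.05 and 1.49), where TRX2 and TRR1 did not pass the test.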

How the data were processed

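The authors cohybridized Cy3- and Cy5-labelled RNA of 2 samples per array. The deposited cDNA values are normalized log2 ratios, whose normalization is not named in the sources used here. The deposited Agilent values are log10 ratios from Agilent feature extraction, limited to -2 and 2, and were multiplied by log2(10). The sources name dyes but no numerator. Deletion over parent was checked on the deleted genes of the 8 untreated arrays. Treated over untreated is likely on the AsIII arrays of the Agilent array, since arrays of exchanged dyes correlated at 0.82 or more and have the label order of the untreated arrays. On the cDNA chip its basis is the correlation with the Agilent parent at the same dose and time (0.38 over 5513 genes, which are not independent). No depth exists for arrays, and their number limits the precision. Probes were named from the platform tables (5577 of 6720 cDNA probes and 9202 of 10807 Agilent probes had 1 gene) and averaged per gene, with no filter on signal. Arrays of a culture pair or dye-swapped pair were averaged, and one limma fit per platform (version 3.58.1, R 4.3.3) held all its conditions, with 1 residual degree of freedom, Benjamini-Hochberg adjustment over all genes and a threshold of 0.05. Levels in treated deletion strains were sums of fitted ratios. Isoform differences were tested by exact sign-flip permutation. Fits were tested on simulated data.

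Array numbers were checked as pairing: deviations of same-numbered arrays correlated at 0.48 or more on the Agilent array, but arrays of another number with the same dye orientation did so nearly as well (median 0.67 against 0.74), so the number stands for dye orientation. On the cDNA chip same-numbered arrays went down to -0.11. All 10 members are named. Of the other lists, the genes with the largest called differences are named, and for each member the nearest of the other genes by Pearson correlation over condition means. Members, lists and tests were chosen with earlier results of these data known. The alternatives were other centring, averaging, error models, call rules, dye orientations, pairings and left-out arrays. No sequences are shown.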

Additional observations from a re-analysis of the deposited data

Results flagged for a closer look

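A total of 12 differences of AsIII response between a deletion strain and the parent passed limma's test over all genes, and each is given here as a value with no explanation. In yap1Δ minus parent they were TSA2 at -3.82, SRX1 at -2.90, TRR1 at -2.69, TRX2 at -2.57, TSA1 at -2.27, PRX1 at -1.41 and AHP1 at -0.77. In cad1Δ minus parent TRX2 was at -0.70, and in rpn4Δ minus parent TRR1 was at -1.07 and TSA2 at -1.0. In arr1Δ minus parent TSA2 was at 2.19 and PRX1 at 0.88. TSA2 thus differed from the parent in 3 of the 4 deletion strains, lower in yap1Δ and rpn4Δ and higher in arr1Δ. Of all genes, 7.36% were lower in yap1Δ, 17.7% lower in rpn4Δ and 28.6% higher in arr1Δ. Every one of these rests on 2 arrays of the deletion strain and the same 4 arrays of the parent. No array of any member stood far from the others of its condition among the 50 sets of 4 or 8 arrays examined.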

How the results depend on the processing

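Of 1058 values of single called members recomputed under the alternatives, 945 kept their direction and their call, 109 kept the direction without passing, 2 moved (PRX1 at 1 mM, 1.39 and 2.20 without one or the other culture pair) and 2 turned sign. Both that turned were untreated ratios in Cy3 alone: TSA1 in yap1Δ at 0.0063 and SRX1 in arr1Δ at 0.087. In the following the number of members called in the main fit stands in brackets, and the cause of a change was not tested unless a setting uses fewer arrays. With each array as a replicate, the cDNA counts were 1 at 100 µM for 30 min (0), 7 at 4 h (0), and 9, 5, 7 and 6 for 2 h minus 30 min, 4 h minus 2 h, 1 mM minus 100 µM at 30 min, and 1 mM for 30 min minus 100 µM for 2 h (0 each). A replicate block on array number made them 2, 7, 9, 8, 8 and 8, and it also called TRX1 at 1 mM (adjusted p = 0.00181 in limma), TRX1 and TSA2 at 2 h (1.33e-05 and 4.07e-07), and TRR2 and TSA2 combined (7.63e-05 and 0.0435); the cDNA array numbers do not pair the samples. On the Agilent array, each array as a replicate gave 4 in yap1Δ with AsIII (7), 0 for cad1Δ minus parent (1), 0 in untreated yap1Δ (1), 0 in untreated rpn4Δ (2), 1 in untreated arr1Δ (4), 4 in treated yap1Δ over treated parent (7) and 0 in treated rpn4Δ (1). The block gave 0 for cad1Δ minus parent, untreated yap1Δ and treated rpn4Δ, and no other Agilent count moved by over 1.5 times; it changed no call of a member on the Agilent array beyond those given in the report. A call at an unadjusted p under 0.001 and 2-fold gave 5 at 1 mM (8), 4 at 4 h (0), 1 for 2 h minus 30 min (0), 5 in the parent (10), 2 in yap1Δ (7), 5 in cad1Δ (9), 0 for cad1Δ minus parent (1), 1 for arr1Δ minus parent (2), 0 in untreated yap1Δ (1) and rpn4Δ (2), 1 in untreated arr1Δ (4) and 0 in treated rpn4Δ (1). The 95% normal range on 3 of 4 arrays gave 3 at 1 mM (8), 1 at 30 min (0), 4 at 4 h (0) and 3 combined (7). Cy5 alone gave 4 at 4 h (0), 0 for cad1Δ minus parent (1), 7 in untreated yap1Δ (1), 2 in treated rpn4Δ (1) and 4 in treated arr1Δ (1). Cy3 alone gave 4 in yap1Δ (7), 0 for cad1Δ minus parent (1), 1 for rpn4Δ minus parent (2), 1 in untreated rpn4Δ (2), 2 in untreated arr1Δ (4), and 0 in treated rpn4Δ (1) and treated arr1Δ (1). The other pairing of the parent arrays gave 4 for rpn4Δ minus parent (2), arr1Δ minus parent (2), untreated rpn4Δ (2) and treated arr1Δ (1), and 2 in treated rpn4Δ (1). Robust error estimates gave 3 in treated rpn4Δ and 3 in treated arr1Δ, and median centring 2 in treated arr1Δ. The combined count was 6 to 8 without one culture pair (7). The fitted Agilent spread came from 2 pairs of one strain, so it may not hold for the deletion strains.

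Of the isoform differences, the cDNA pairs alone (TRX2 minus TRX3 2.07, TRR1 minus TRR2 1.01, TRX2 minus TRX1 2.52; adjusted p = 0.167 each, exact permutation) and the Agilent pairs alone (1.40, 1.48 and 1.82; adjusted p = 0.125 to 0.15, exact permutation) did not pass. The 5 cDNA pairs cannot reach a p below 0.0625. AHP1 minus PRX1 was -0.042 on the Agilent pairs alone and -0.15 in Cy3 alone, and passed in Cy5 alone (0.59). TRX1 minus TRX3 passed in Cy3 alone (-0.67). The other values of these 8 differences kept their sign and their call.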
